A study of Mus musculus with 4 samples.

Results

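The 9 genes described here encode adipokines and hormones secreted by fat: leptin (Lep), adiponectin (Adipoq), resistin (Retn), resistin-like alpha (Retnla), retinol binding protein 4 (Rbp4), nicotinamide phosphoribosyltransferase (Nampt), chemerin (Rarres2), apelin (Apln) and angiotensinogen (Agt). They were taken by name, and all probe sets that the platform annotation assigns to them were used, 12 of the 22690 on the array and 9 of the 12394 genes with a probe set of their own. None of the 12 is assigned to another gene as well. RNA came from the gonadal white adipose tissue (WAT) of male C57BL/6J mice aged 3 months, which were Fsp27 knockout or wild-type. FSP27, the product of Cidec, is a protein of the lipid droplet surface of white adipocytes. For each genotype, RNA of 5 mice was pooled and hybridized in duplicate to Affymetrix mouse genome arrays, so that 2 Fsp27 knockout arrays were set against 2 wild-type arrays. With 1 pool of RNA per genotype, the duplicates share their mice, and every p-value below measures the spread between arrays and not between animals.

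White fat is an endocrine organ as well as an energy store. Leptin reports the size of the fat store to the hypothalamus, adiponectin favours insulin sensitivity, and resistin opposes insulin action in mice. Mature adipocytes make leptin, adiponectin, resistin, retinol binding protein 4 and angiotensinogen in mouse fat, whereas resistin-like alpha is a product of the stromal fraction, chiefly of macrophages that respond to interleukin-4, and chemerin, apelin and nicotinamide phosphoribosyltransferase are made by adipocytes and by stromal cells. In RNA of whole tissue, fewer cells of a type and less RNA per cell cannot be told apart.

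Each value is the deposited GCOS signal, a linear brightness in arbitrary units. The median signal was 181.1 and 164.8 on the Fsp27 knockout arrays, against 192.8 and 172.4 in wild-type WAT, and the SD of the log2 difference between duplicates was 0.64 for the knockout and 0.46 for the wild-type arrays. Of the 12394 genes, 8523 reached a mean signal of 100 and were tested with limma on log2(signal + 16), with Benjamini-Hochberg adjustment over all of them and a threshold of 0.05. A fold change on this scale understates the change of dim genes. The median change over the 8523 genes was -0.08 (log2, knockout minus wild-type). The gene Cidec itself had signals of 8564 and 8949 on the knockout arrays, against 20491 and 18255 in wild-type WAT, a log2 fold change of -1.14 (limma adjusted p = 0.00057). Signal thus remained on the arrays labelled knockout, and no source used here places this probe set relative to the deletion, so that its level does not check the labels.

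Retnla, Lep and Rbp4 fell in FSP27-deficient WAT, and no member rose. All 9 members were bright enough to be tested. By limma 3 of the 9 were lower, where 6.51% of all tested genes were, and 0 of the 9 were higher, where 5.78% of all tested genes were. At an unadjusted p under 0.05, 1 of the 9 was higher, Retn, where 10.6% of all tested genes were. Without the variance trend of limma 0 of the 9 passed (adjusted p = 0.054 for Retnla, 0.094 for Lep and 0.12 for Rbp4), and likewise 0 with the methods' t-test after adjustment (0.26, 0.29 and 0.30). The same 3 genes were lower by at least 0.5 on the log2 scale of the ratio of mean signals, with both duplicate ratios below 1, a criterion that 20.6% of all tested genes met in that direction, and 0 of the 9 met it in the higher direction, which 14.4% of all tested genes did. Both knockout arrays lay below both wild-type arrays for Lep, Retnla, Rbp4 and Apln (31.4% of all tested genes) and above both for Adipoq, Retn and Nampt (22.7%), whereas the groups overlapped for Agt and Rarres2. The median change of the 9 was -0.22. Each array was also left out in turn. Such a fit sets 1 array of a genotype against 2 of the other, takes its spread from the duplicates of the other genotype alone and assumes that the lone array varies like them, so that its p-values are conditional on that assumption.

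**Figure D1:**
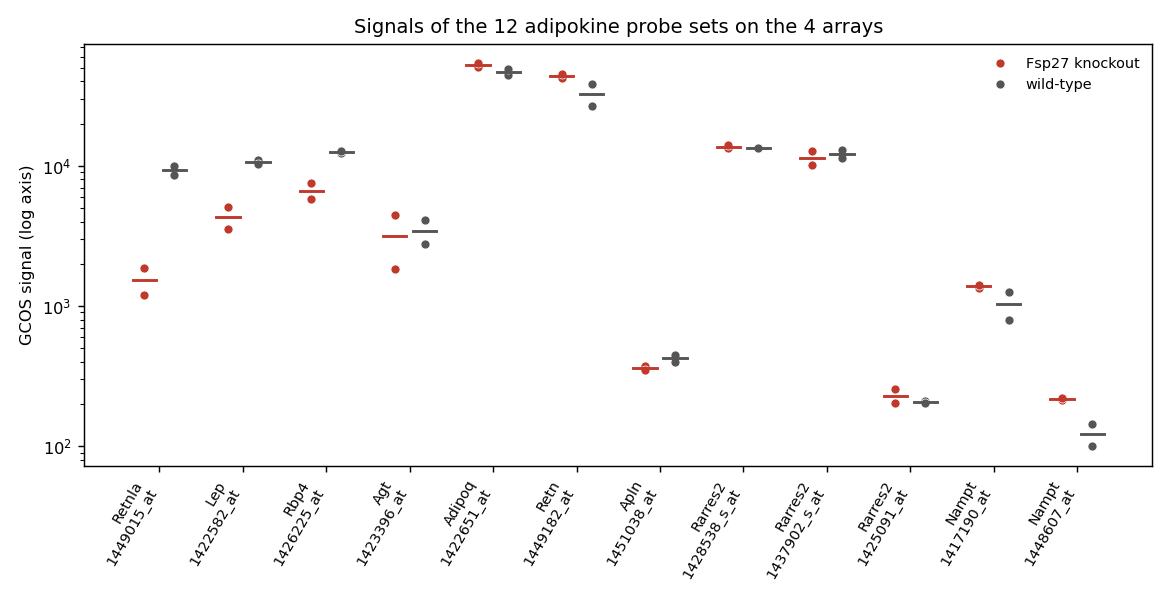
Signal of each of the 12 adipokine probe sets (log axis, arbitrary GCOS units) on the 2 Fsp27 knockout arrays (red) and the 2 wild-type arrays (grey), with a bar at each group's mean. The red points lie below the grey ones for Retnla, Lep, Rbp4 and Apln, and the duplicates of Agt are spread widely in both groups.

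Retnla showed the deepest fall of the 9. The gene encodes a cysteine-rich secreted protein of the resistin family, and in mice it is induced by interleukin-4 through STAT6 in alternatively activated macrophages. Its signal (probe set 1449015_at) was 1201 and 1864 on the knockout arrays, against 9939 and 8677 in wild-type WAT. Both knockout values were far below both wild-type values, and the gap between groups was wider than that between duplicates. The mean was 1533 ± 469 in FSP27-deficient WAT and 9308 ± 893 in wild-type WAT (SD, n = 2 arrays each), 6.07-fold lower in the knockout, and the log2 fold change was -2.62 (SE 0.21, 95% interval -3.08 to -2.16, limma adjusted p = 3e-05). It ranked 20 from the lowest among the changes of the 8523 genes. With each array left out, and the lone array assumed to vary like the other genotype's duplicates, the log2 fold change was -2.93 to -2.31 and the adjusted p at most 0.00018.

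Of 7 macrophage markers, all of them tested, 4 fell as well, with the largest falls for Cd163 and Cd68. The changes of the 7 ranged from -1.43 to -0.45, with a median of -0.93. Their summed signal was 3907 and 4800 on the knockout arrays, against 8558 and 8710 in wild-type WAT. Of 5 markers of alternatively activated macrophages, the 3 bright enough to test were lower (Mrc1, Clec10a and Mgl2, median -1.17), and Arg1 and Chil3 were under the filter. Of the macrophage markers called in either list, only Mrc1, the mannose receptor, kept its call with each array left out. Without wild-type replicate 2 the adjusted p was 0.11 for Cd163, 0.16 for Cd68 and 0.063 for Clec10a, without wild-type replicate 1 it was 0.064 for Csf1r and 0.32 for Mgl2, and without knockout replicate 1 it was 0.098 for Mgl2. All 4 eosinophil markers were under the filter, with summed signals of 186 and 43 on the knockout and 138 and 98 on the arrays of wild-type WAT. The part of these cells in the fall of Retnla was not tested.

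The promoter of Retnla is shown because the gene changed most. The window runs from 250 bases before to 50 bases after its start (RefSeq, GRCm38.p6, chr16:48842359-48842658, plus strand). Capitals mark matches to TTCNNNNGAA, the spacing at which STAT6 prefers to bind, to TTGCNNAA, a pattern bound by C/EBP factors, and to TATAAA. They lie at -145 to -136, -134 to -127 and -30 to -25 from the start.
Retnla: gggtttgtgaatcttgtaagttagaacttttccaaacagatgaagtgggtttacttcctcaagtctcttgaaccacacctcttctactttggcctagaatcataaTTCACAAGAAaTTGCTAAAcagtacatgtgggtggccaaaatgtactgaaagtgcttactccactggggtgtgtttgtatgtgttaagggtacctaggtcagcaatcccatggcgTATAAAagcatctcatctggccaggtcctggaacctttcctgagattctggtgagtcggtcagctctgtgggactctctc
Over 32851 mouse promoter windows of this length, 6.95% held TTCNNNNGAA, 10.8% TTGCNNAA and 13.6% TATAAA on either strand. Windows were found for 8 of the 9 members.

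Lep, which encodes the satiety hormone leptin, had signals of 5051 and 3544 (probe set 1422582_at) on the knockout arrays, against 10972 and 10320 in wild-type WAT. Both knockout arrays were lower than both wild-type arrays, and the groups did not overlap. The mean was 4297 ± 1066 in FSP27-deficient WAT and 10646 ± 461 in wild-type WAT (SD, n = 2 arrays each), 2.48-fold lower in the knockout. The log2 fold change was -1.33 (SE 0.19, 95% interval -1.74 to -0.92, limma adjusted p = 0.00088) and ranked 290 from the lowest. The ratio of knockout to wild-type was 0.46 between the arrays numbered 1 and 0.343 between those numbered 2. With each array left out, on the same assumption, the log2 fold change was -1.58 to -1.07 and the adjusted p at most 0.0097.

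The promoter of Lep is shown because it holds a palindromic C/EBP match, TTGCGCAA, at -55 to -48 (RefSeq, GRCm38.p6, chr6:29059971-29060270, plus strand, match in capitals), which reads the same on both strands.
Lep: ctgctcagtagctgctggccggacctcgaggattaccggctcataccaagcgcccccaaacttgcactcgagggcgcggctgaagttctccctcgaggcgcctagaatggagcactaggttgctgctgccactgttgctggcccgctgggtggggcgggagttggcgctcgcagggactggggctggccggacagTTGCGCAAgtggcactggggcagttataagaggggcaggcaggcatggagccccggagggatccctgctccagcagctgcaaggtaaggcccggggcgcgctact

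Rbp4 encodes the carrier of retinol in blood and is made by adipocytes as well as the liver. It had signals of 5803 and 7529 (probe set 1426225_at) on the knockout arrays, against 12457 and 12737 in wild-type WAT. Both knockout arrays were again lower, and the wild-type duplicates nearly coincided. The mean was 6666 ± 1220 in FSP27-deficient WAT and 12597 ± 198 in wild-type WAT (SD, n = 2 arrays each), 1.89-fold lower in the knockout, with a log2 fold change of -0.93 (SE 0.17, 95% interval -1.30 to -0.56, limma adjusted p = 0.0041). With each array left out, on the same assumption, the log2 fold change was -1.12 to -0.74 and the adjusted p at most 0.039. RefSeq gives Rbp4 a pair of start windows, and the one shown (GRCm38.p6, chr19:38124762-38125061, minus strand) holds a C/EBP match on its opposite strand, TTATGCAA, at -128 to -121 and TATAAA at -28 to -23, both in capitals. The other window held TTCTAGAGAA, a match to the STAT6 pattern, at -120 to -111.
Rbp4: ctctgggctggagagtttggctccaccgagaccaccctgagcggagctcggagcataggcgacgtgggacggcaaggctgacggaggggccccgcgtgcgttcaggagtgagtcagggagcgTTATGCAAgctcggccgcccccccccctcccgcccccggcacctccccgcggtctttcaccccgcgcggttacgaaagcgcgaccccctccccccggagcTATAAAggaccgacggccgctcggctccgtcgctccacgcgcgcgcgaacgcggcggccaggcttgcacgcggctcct

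The falls of Lep and Rbp4 stood beside a higher summed signal of adipocyte markers. The sum was 98390 and 106310 on the knockout arrays, against 90192 and 91331 in wild-type WAT. It leans on Fabp4, with 55056 and 62522 on the knockout arrays, against 43790 and 49664 in wild-type WAT. The sum also includes Cidec, the targeted gene. Counted by gene, 4 of the 6 markers were higher on both knockout arrays, where 22.7% of all tested genes were. Cidec alone was lower on both, where 31.4% of all tested genes were. Of the 6 adipocyte markers tested, Pnpla2, which encodes a triglyceride lipase, rose (log2 fold change 0.73, limma adjusted p = 0.0092, or 0.14 without wild-type replicate 2), Cidec fell, and the median was 0.28. Markers of brown adipocytes moved as well: 4 of 5 tested rose, with a median of 3.03. The summed signal of the 6 markers was 19481 and 24035 on the knockout arrays, against 1365 and 977 in wild-type WAT. This sum leans on Cox8b, with 13491 and 19539 on the knockout arrays, against 451 and 374 in wild-type WAT. Ppargc1a changed by 0.26 and did not pass the test, and Ucp1 was under the filter. Dio2, one of the 4, lost its call without knockout replicate 2 (adjusted p = 0.12), wild-type replicate 1 (0.10) or wild-type replicate 2 (0.13). The part of either cell type in the changes of Lep and Rbp4 was not tested.

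Adipoq and Retn, a pair of adipocyte hormones, did not pass the test, and their signals were higher on both knockout arrays. Adipoq, which encodes adiponectin, had signals of 50496 and 54068 (probe set 1422651_at) on the knockout arrays, against 44423 and 48824 in wild-type WAT. The knockout arrays were the higher ones, by 1.12-fold in the mean (52282 ± 2526 in FSP27-deficient WAT and 46624 ± 3112 in wild-type WAT, SD, n = 2 arrays each), and the log2 fold change of 0.17 did not pass the test (SE 0.14, 95% interval -0.14 to 0.47, limma adjusted p = 0.52).

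Retn, which encodes resistin, had signals of 42588 and 45320 (probe set 1449182_at) on the knockout arrays, against 26907 and 38488 in wild-type WAT. The knockout duplicates lay close together above both wild-type arrays, which were farther apart. The mean was 43954 ± 1932 in FSP27-deficient WAT and 32698 ± 8189 in wild-type WAT (SD, n = 2 arrays each), 1.34-fold higher in the knockout. The log2 fold change was 0.45 (SE 0.17, 95% interval 0.07 to 0.83), and after adjustment it did not pass the test (limma adjusted p = 0.13, before adjustment 0.024). Its promoter is shown because Retnla is of the same family (RefSeq, GRCm38.p6, chr8:3655520-3655819, plus strand). It held none of the patterns in this window, and neither did the windows of Adipoq, Nampt and Apln.
Retn: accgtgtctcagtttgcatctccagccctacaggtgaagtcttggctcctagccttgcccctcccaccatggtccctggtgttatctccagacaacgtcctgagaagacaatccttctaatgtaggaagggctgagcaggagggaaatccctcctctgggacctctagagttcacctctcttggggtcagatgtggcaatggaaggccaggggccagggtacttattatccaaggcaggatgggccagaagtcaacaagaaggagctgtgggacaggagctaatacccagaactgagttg

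Agt encodes angiotensinogen, the precursor of the angiotensins. Its signal (probe set 1423396_at) was 1841 and 4472 on the knockout arrays, against 2767 and 4119 in wild-type WAT. The groups overlapped, and the duplicates differed by 2.43-fold in the knockout and by 1.49-fold in wild-type WAT. The log2 fold change was -0.23 (SE 0.33, 95% interval -0.95 to 0.49, limma adjusted p = 0.72). Its direction rested on single arrays: it was 0.40 without knockout replicate 1, 0.05 without wild-type replicate 2, and -0.87 without knockout replicate 2. The last had an adjusted p of 0.024, which rests on the spread of the wild-type duplicates alone and leaves out the 2.43-fold spread of the knockout duplicates.

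Among the members made by both fractions, none passed the test. Nampt, which encodes the rate-limiting enzyme of NAD salvage and is also found outside cells, had signals of 1354 and 1421 (probe set 1417190_at) on the knockout arrays, against 1260 and 797 in wild-type WAT. Both knockout values lay above both wild-type values, and the log2 fold change was 0.46 (SE 0.23, 95% interval -0.05 to 0.97, limma adjusted p = 0.25). Its other probe set, 1448607_at, gave 215 and 222 on the knockout arrays, against 143 and 99.6 in wild-type WAT, in the same direction (log2 fold change 0.79, adjusted p = 0.29 over all probe sets tested). Counted by probe set, 3 of the 12 were lower by limma, those of Retnla, Lep and Rbp4, where 5.59% of all tested probe sets were.

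Rarres2 encodes chemerin, a chemoattractant that is activated by proteases. Its brightest probe set (1428538_s_at) gave 13438 and 13984 on the knockout arrays, against 13414 and 13487 in wild-type WAT. These values overlapped, and the log2 fold change was 0.03 (SE 0.15, 95% interval -0.30 to 0.35, limma adjusted p = 0.94). Another probe set, 1437902_s_at, gave 10152 and 12725 on the knockout arrays, against 12893 and 11344 in wild-type WAT, with a log2 fold change of -0.09, and 1425091_at gave 0.13. The 3 probe sets thus differed in sign, each within the spread of its duplicates.

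Apln encodes apelin, a ligand of the receptor Aplnr. It had signals of 374 and 350 (probe set 1451038_at) on the knockout arrays, against 448 and 401 in wild-type WAT. Both knockout arrays were lower, but by little, and the log2 fold change of -0.22 did not pass the test (SE 0.25, 95% interval -0.76 to 0.32, limma adjusted p = 0.64).

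**Figure D2:**
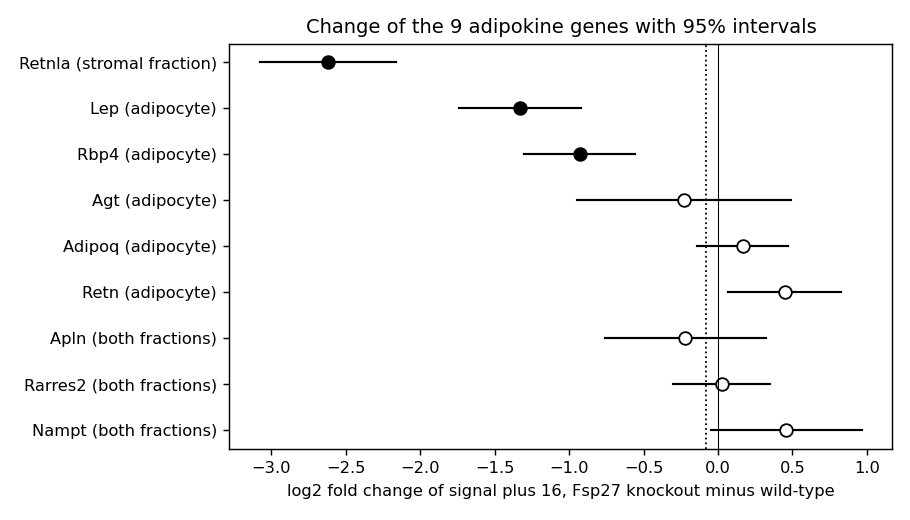
Change of the 9 adipokine genes (log2 fold change of signal plus 16, knockout minus wild-type, with limma's 95% interval). Filled points passed the adjusted threshold of 0.05, and the dotted line is the median of all tested genes at -0.08. Retnla, Lep and Rbp4 lie to the left of 0 with their whole intervals.

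Set by source, the 5 members made by adipocytes had changes of -1.33 to 0.45 with a median of -0.23, of which 2 fell and 0 rose. The 3 made by both fractions had a median of 0.03 and no call, and Retnla, the single stromal member, changed by -2.62. With 1 stromal member, the difference between the sources was not tested. Other secreted products of each fraction were therefore counted. Of 18 other adipocyte products, 15 were measured and 12 tested: 1 rose, 3 fell, and the median was 0.22, against -0.08 over all tested genes. Sfrp5, which encodes an inhibitor of Wnt signalling, had signals of 88.2 and 64.9 on the knockout arrays, against 1120 and 698 in wild-type WAT (log2 fold change -3.29, limma adjusted p = 8.1e-05). Gpx3, a secreted glutathione peroxidase, fell by 1.36 on the log2 scale (adjusted p = 0.0041), and both also passed with each array left out. Nrg4, a growth factor of the neuregulin family, rose (1.03, adjusted p = 0.0066, or 0.061 without wild-type replicate 1). Lcn2, which encodes lipocalin 2, fell (-0.97, adjusted p = 0.022), but not without knockout replicate 1 (0.077) or wild-type replicate 1 (0.25).

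Of 19 other stromal and immune products, 17 were measured and 10 tested. In 8 of the 10 both knockout arrays lay below both wild-type arrays, where 31.4% of all tested genes did, and in 1 above both. The median was -0.48, but only 2 fell by limma, where 6.51% of all tested genes did, and 0 rose. Ccl2, a chemokine that draws monocytes, had signals of 135 and 17.5 on the knockout arrays, against 424 and 449 in wild-type WAT (log2 fold change -2.67, limma adjusted p = 0.013). Its knockout duplicates differed by 7.74-fold. Tgfb1, which encodes transforming growth factor beta 1, had 274 and 249.8 on the knockout arrays, against 547 and 567 in wild-type WAT (-1.05, adjusted p = 0.016). Neither kept its call without wild-type replicate 1 (adjusted p = 0.12 and 0.13) or wild-type replicate 2 (0.15 for both). The summed signal of 4 neutrophil markers was 917 and 625 on the knockout arrays, against 380 and 441 in wild-type WAT. That of 5 T cell markers, all under the filter, was 582 and 287, against 170 and 175. That of 4 mast cell markers was lower, with 195 and 526, against 659 and 808. Of the 2 neutrophil and 2 mast cell markers tested, 0 passed. Markers of stromal cells were lower in part. The summed signal of 7 fibroblast and preadipocyte markers was 7561 and 9617 on the knockout arrays, against 13749 and 13191 in wild-type WAT, and 2 of the 6 tested were lower (Col1a1 and Dpt, median of the 6 -0.65). Of 4 mesothelial markers 2 were lower (Msln and Upk3b, median -1.41), and of 5 endothelial markers 1 was (Pecam1, median -0.50), whereas Kdr changed by 0.16 and did not pass the test. Among these 5 calls only that of Upk3b passed with each array left out. The adjusted p was 0.22 for Col1a1, 0.19 for Dpt, 0.10 for Pecam1 and 0.083 for Msln without wild-type replicate 1, it was 0.20 for Dpt, 0.12 for Pecam1 and 0.12 for Msln without wild-type replicate 2, and it was 0.17 for Dpt and 0.063 for Pecam1 without knockout replicate 1. Of 3 smooth muscle markers 2 were lower as well (Acta2 and Tagln, median -1.02). With each array left out, the log2 fold change was -1.11 to -0.93 for Acta2 and -1.24 to -0.84 for Tagln. The call of Tagln was lost without wild-type replicate 2. The part of these cell types in the changes was not tested.

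**Figure D3:**
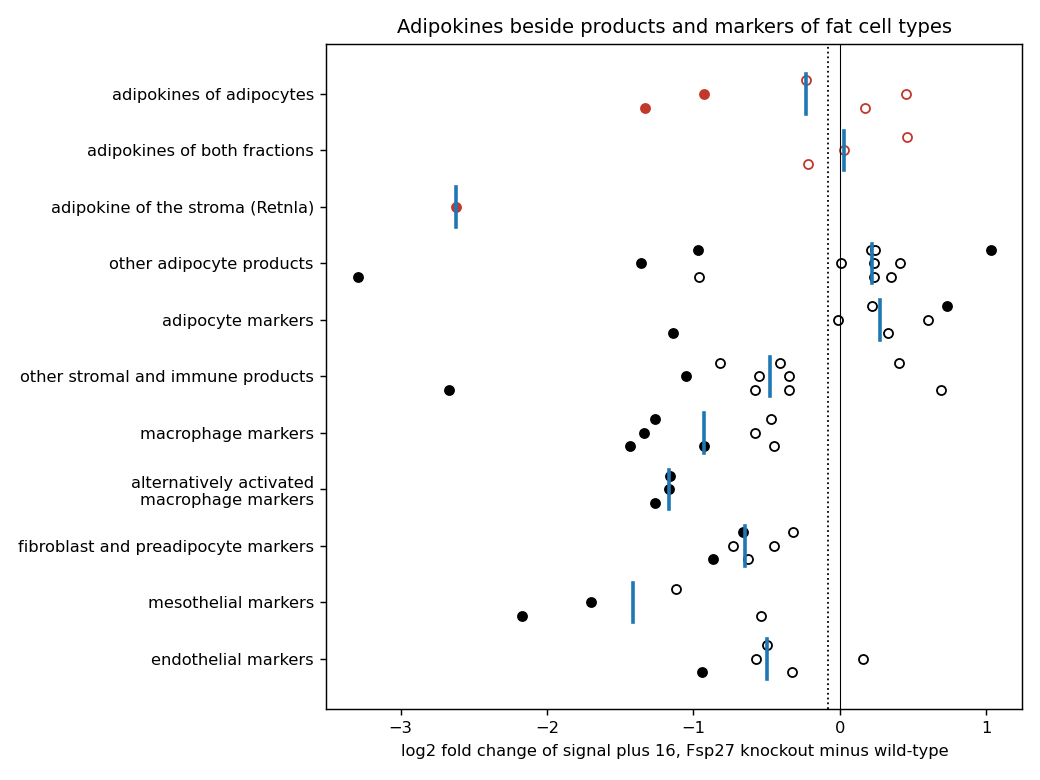
Change (log2 fold change of signal plus 16, knockout minus wild-type) of the adipokines (red) and of other secreted products and cell type markers (black), one point per tested gene. Filled points passed the adjusted threshold of 0.05, blue bars are medians of each list, and the dotted line is the median of all tested genes. The stromal and macrophage lists have medians left of 0. So do the 5 adipokines made by adipocytes (-0.23), whereas the other adipocyte products have a median of 0.22.

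Partners of the adipokines were counted too, where 5.78% of all tested genes were higher and 6.51% lower. Of 13 receptor genes, 10 were measured and 6 tested, of which 1 rose and 1 fell, with a median of -0.12. Adipor2, an adiponectin receptor, rose, with 6386 and 7571 on the knockout arrays, against 4070 and 4053 in wild-type WAT (log2 fold change 0.77, limma adjusted p = 0.01, but 0.087 without wild-type replicate 1 and 0.083 without wild-type replicate 2). Aplnr, the apelin receptor, fell, with 1173 and 1417 on the knockout arrays, against 2210 and 2631 in wild-type WAT (-0.89, adjusted p = 0.011, but 0.14 without wild-type replicate 2 and 0.097 in the mean of its probe sets). Lepr and Cmklr1, which encode receptors of leptin and chemerin, were under the filter. Of 7 genes for adiponectin assembly and secretion, P4hb, a protein disulfide isomerase, fell (-1.13, adjusted p = 0.002, and at most 0.034 with each array left out), and the median was -0.04. None of the 6 tested renin-angiotensin genes, the 4 of NAD salvage and sirtuins, or the 4 proteases that process chemerin and apelin passed the test, with medians of -0.24, 0.46 and -0.84.

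The list of regulators of adipokine genes held 15 genes, namely transcription factors, the cytokine receptor chains Il4ra and Il13ra1, and Socs3, a suppressor of cytokine signalling. Of these 14 were tested, 1 rose and 2 fell, and the median was -0.06. Nr1h3, which encodes the liver X receptor alpha, rose (log2 fold change 0.83, limma adjusted p = 0.016, but 0.14 without wild-type replicate 1 and 0.086 without wild-type replicate 2). Cebpd, a C/EBP family member, had 189 and 239.8 on the knockout arrays, against 545 and 549 in wild-type WAT (-1.30, adjusted p = 0.0074), but lost its call without wild-type replicate 1 (0.083) or 2 (0.082) and in the mean of its probe sets (0.53). Klf4 fell (-0.79, adjusted p = 0.041), and kept no call without knockout replicate 1 (0.075), wild-type replicate 1 (0.13) or wild-type replicate 2 (0.33). Pparg and Cebpa, the main regulators of adipocyte genes, had changes of 0.17 and -0.02 that did not pass the test.

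**Figure D4:**
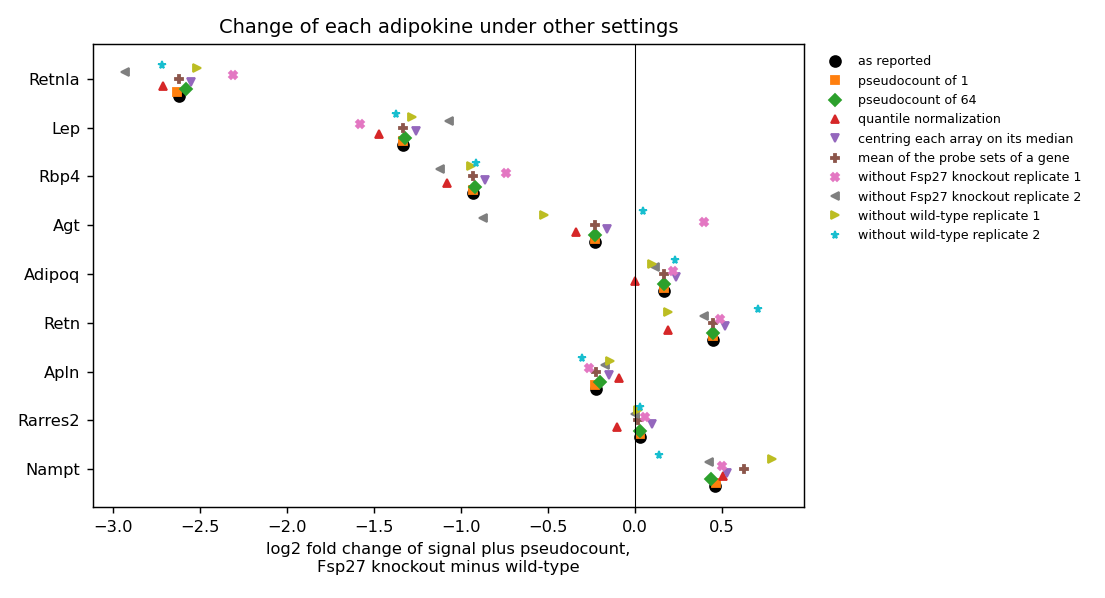
Change of each adipokine (log2 fold change, knockout minus wild-type) as reported (black circles) and under other processing or with 1 array left out (coloured marks). Retnla, Lep and Rbp4 stay left of 0 throughout, whereas the marks of Agt and Rarres2 fall on both sides of 0.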

How the data were processed

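Gonadal WAT RNA of 5 mice per genotype was pooled by the authors and hybridized in duplicate. The authors deposited the GCOS signal intensity of each probe set, a linear value. No source used here gives the GCOS version or its scaling target. Of 22690 probe sets, 64 were controls, 20393 carried 1 gene symbol, 691 several and 1606 none in the platform annotation, and only those with 1 were used. The brightest probe set stood for each gene. The filter was a signal of 100 averaged over the 4 arrays. Genes that reached it were fitted on log2(signal + 16) by limma 3.58.1 in R 4.3.3 (lmFit, then eBayes allowing the variance to follow the mean), with Benjamini-Hochberg adjustment over all genes tested. The scripts were tested on simulated data. With 2 arrays per genotype an exact two-sided permutation test cannot go below p = 0.333. Precision is limited by how few arrays there are. The alternatives were a pseudocount of 1 or 64, no filter or one of 200, quantile normalization, median centring, averaged probe sets per gene, no variance trend, the methods' t-test, a replicate block and each array left out, and for the fold criterion a fold of 2 or both duplicates past the fold. The fold criterion with each array left out was added after seeing the data. All members were named, with at most 4 genes of each list past the threshold, those with the largest change, and markers that lost a call with an array left out were named after their values were seen. Members and lists were chosen with earlier results of these data known. Promoters are RefSeq windows on GRCm38.p6.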

Additional observations from a re-analysis of the deposited data

How the results depend on the processing

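The falls of Retnla, Lep and Rbp4 kept their direction under every alternative run, with log2 fold changes of -2.93 to -2.31 for Retnla, -1.58 to -1.07 for Lep and -1.12 to -0.74 for Rbp4. Without the variance trend, 0 adipokines were lower, and over all genes 1 was higher and 0 were lower, although 1861 genes had an unadjusted p under 0.05. With the methods' t-test, 0 adipokines were lower, and over all genes 0 were higher and 0 were lower, although 1309 had an unadjusted p under 0.05. With each array left out, 216 to 503 genes were higher over all genes and 192 to 874 were lower, with the fewest without a wild-type array (216 higher without replicate 1, 270 without replicate 2), and the 3 adipokines stayed lower, with the lone array assumed to vary like the other genotype's duplicates. The fold criterion called 0 to 1 adipokines higher with an array left out (Nampt without wild-type replicate 1, Retn without wild-type replicate 2) and 1, Nampt, after centring each array on its median. It called 3 to 4 lower with an array left out, Agt being the added one without knockout replicate 2, and 2 lower at a fold of 2, where Rbp4 was lost. Rarres2 turned to -0.10 after quantile normalization and to -0.09 with probe set 1437902_s_at, and Agt turned to 0.40 without knockout replicate 1 and to 0.05 without wild-type replicate 2, against -0.87 without knockout replicate 2. Of the other genes named, calls were also lost without the filter (limma adjusted p = 0.056 for Ccl2, 0.073 for Pnpla2, 0.074 for Klf4, 0.081 for Mgl2, 0.099 for Dio2 and 0.11 for Dpt), with averaged probe sets (0.053 for Mgl2 and for Col1a1, 0.066 for Pnpla2, 0.077 for Dpt, 0.092 for Klf4, 0.097 for Aplnr and 0.53 for Cebpd), after quantile normalization (0.058 for Mgl2 and 0.084 for Klf4) and after centring (0.095 for Klf4 and 0.15 for Dpt), and Tgfb1 without the filter and Lcn2 after quantile normalization lay at the threshold (0.05). The cause was not tested.

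The labels number the duplicates 1 and 2 in both genotypes, but the differences between duplicates correlated by only 0.07 over 8523 genes. The labels do not state whether arrays of the same number were processed together, and this correlation cannot decide it. With the replicate block, 1 adipokine was higher (Retn, limma adjusted p = 0.019) and the same 3 were lower, and 1466 genes were called over all, against 1048 without it. With 2 arrays of 1 RNA pool per genotype, no value here shows how much mice differ, and mRNA was measured, not secreted protein.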
